A study of Homo sapiens with 4 samples.

Results

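The genes described here encode 43 proteins of the lysosome: 9 proteases, 7 glycosidases, 6 lipid hydrolases and activator proteins, 7 membrane proteins, 13 subunits of the proton pump and the transcription factor TFEB. They were chosen by name as textbook lysosomal genes, with earlier results of these data known. Of 20044 genes with a probe on the arrays, 41 of the 43 were found by symbol, and the tetraspanin gene CD63 and ATP6V0C, a subunit of the pump's membrane ring, were not analysed here.

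Lysosomes are acidic organelles that break down proteins, glycans and lipids delivered by endocytosis and autophagy. The V-ATPase, a rotary pump with a cytosolic V1 part that splits ATP and a membrane V0 part that carries protons, keeps the lumen acidic, which the hydrolases need to work. Many of the genes share a promoter element read by TFEB and its relatives TFE3 and MITF, which enter the nucleus when lysosomes are stressed or nutrients are short. In intestinal epithelium lysosomes serve the turnover of absorbed and autophagic material.

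Transcripts were profiled in cultures labelled HT-29, an established line from a human colorectal adenocarcinoma, on 4 Illumina HumanHT-12 V4 BeadChip arrays, 1 for each group. On chip 1 were cells given 20 µM cyclopamine for 48 h, a plant steroidal alkaloid that inhibits Smoothened in the Hedgehog pathway, and a 48 h control, which the title calls DMSO and the source name tomatidine, an alkaloid often used as an inactive relative of cyclopamine. Chip 2 held a 48 h DMSO control and cells given 20 µM GANT61 for 48 h, a small molecule known as an inhibitor of the GLI factors. The series title asks what these Hedgehog inhibitors do in this line; no group had a second array, so every difference is between single cultures, has no replicate check and carries no p-value.

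The arrays of chip 1 went against the cell line label. Each chip 1 array detected 3 of 15 colon epithelium markers, while on chip 2 the control detected 12 and the GANT61 culture 11. EPCAM and CDH1, adhesion proteins of epithelia, did not pass background on chip 1, while the keratin genes KRT8 and KRT18 were above it on all 4 arrays. Of 10 mesenchymal or fibroblast markers, 3 were above background on each chip 1 array and 1 on each chip 2 array, so most of that list was undetected on both chips. VIM, a mesenchymal filament gene, had log2 levels of 11.60 and 11.66 on chip 1 and 6.22 and 6.32 on chip 2. CDH2, the neural cadherin, had 9.16 and 9.16 on chip 1 with neither chip 2 array above background. Chip, culture and the vehicle of the control cannot be told apart, so each compound was read against the control of its own chip only. In cultures measured in bulk, fewer cells of a kind and less transcript per cell cannot be told apart either.

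A level here is the log2 of the background-corrected, quantile-normalised intensity of the brightest probe of a gene, and levels of different genes are not compared, since probes differ. A probe counted as above background at a detection p under 0.01. Ratios are given on the log2 scale, treated minus control, for genes above background on both arrays, and a gene is called higher or lower when at least 1.5-fold apart. Between different probes of the same gene the ratio had an SD of 0.23 per probe with cyclopamine (1515 genes) and 0.27 with GANT61 (1900 genes), a technical spread that covers neither culture nor labelling. A single array for each group limits how precise any value is.

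Of the 41 members, 39 were above background on at least 1 array and 34 on all 4. CTSS, a protease gene best known from antigen-presenting cells, and TFEB itself were above background on none, so no change in either was measurable. The control cultures already differed in some members. Of 34 detected in both controls, 12 had a level 1.5-fold or more higher on chip 1 and 3 a level that much lower, or 35.3% higher where the background over all 7827 genes was 31.3%, and 8.82% lower against 26.6%. At 2-fold the counts were 6 higher and 2 lower, where all genes gave 18.8% and 16.5%, and 21 of 34 were higher by any amount (61.8% against 53.5%). The shares higher are near those of all genes, and the shares lower are below them. Within 1.5-fold lay 19 of the 34 members and 3297 of the 7827 genes, and the SD of the log2 difference was 0.98 and 1.21.

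Single members set the controls far apart. CTSH, a cathepsin with aminopeptidase activity, had log2 levels of 12.03 in the chip 2 control and 11.98 with GANT61 but did not pass background on chip 1, where the control was at least 73.3-fold lower, and its other probe showed the same pattern of detection. CTSZ, a carboxypeptidase, went the other way, with 10.48 in the chip 1 control and 7.67 in the chip 2 control, 7.01-fold apart. ASAH1, the acid ceramidase, was 6.30-fold and NPC1, the membrane protein that exports cholesterol from lysosomes, 4.41-fold higher in the chip 1 control. These 4 genes therefore started from different levels under each compound. SCARB2, the receptor that carries glucocerebrosidase to lysosomes, was 3.51-fold lower in the chip 1 control, and ATP6V1C1, a V1 stalk subunit, was below background on chip 1 and at least 3.18-fold lower there. GPNMB, a glycoprotein of lysosomes and melanosomes, was above background on chip 1 alone and at least 2.17-fold higher in its control. Of 11 pump subunits measured in both controls, 4 were higher on chip 1 (36.4%, near the 31.3% of all genes). The other 7 were within 1.5-fold and 0 were lower, where 26.6% of all genes were lower.

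**Figure D1:**
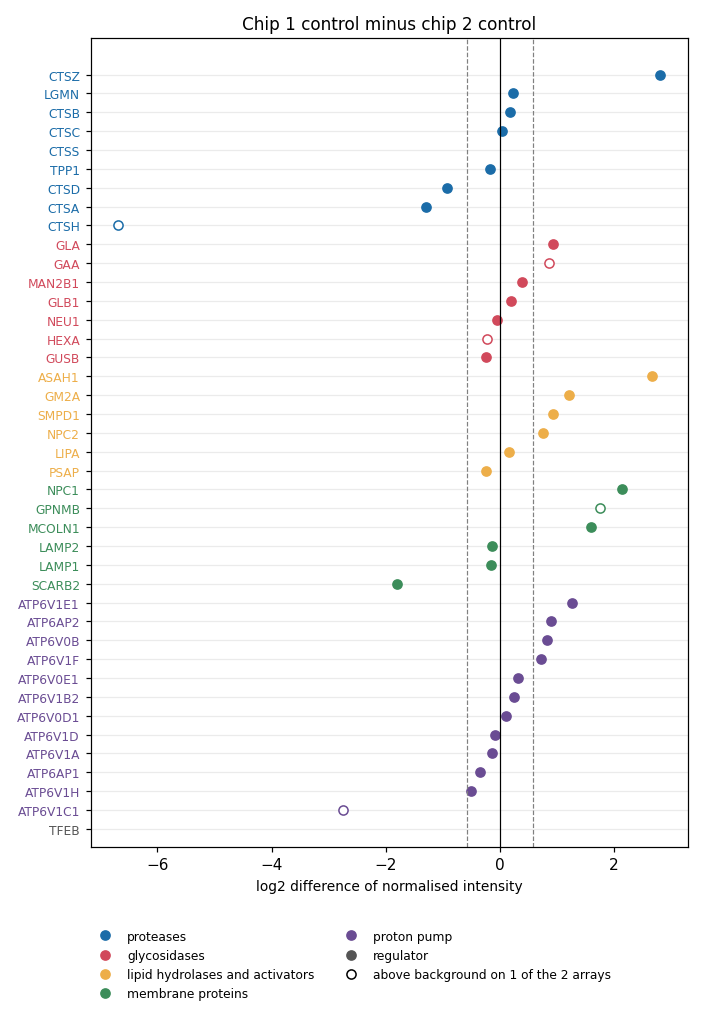
Log2 difference of normalised intensity, chip 1 control minus chip 2 control, for each member (rows, coloured by role); filled points were above background in both controls, open points in 1, where the measured difference is drawn and not its bound, and CTSS and TFEB have no point. Dashed lines mark 1.5-fold; CTSZ at 2.81 and CTSH at the far left stand farthest out.

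With GANT61 the members, a list chosen with earlier results of these data known, were mostly higher than in the control. Other lysosomal genes, given below, were less one-sided, with 20% higher, 12.3% lower and a median of 0.08 over 65 measured. Of 37 members detected on both chip 2 arrays, 14 were at least 1.5-fold higher and 0 lower, which is 37.8% against a background of 10.7% of 9370 genes higher and 8.75% lower. Their median log2 ratio was 0.53, where that of all genes was 0.01, and 31 of the 37 (83.8%) lay above 0 against 51% of all genes. These signs are those of the brightest probe. Of 11 members with several probes measured, 5 had the same sign at every probe. NPC1 alone was at least 2-fold higher and none was lower by that much, where all genes gave 3.61% and 1.9%. The remaining 23 lay within 1.5-fold, from -0.26 for GUSB to 0.58 for CTSD. Over all 41 members with a probe, above background or not, the median was 0.43.

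The size of this difference depends on the scaling. With median scaling in place of quantile normalisation the median of all genes itself was -0.18 and 4 members were at least 1.5-fold higher. Relative to that median of all genes, 14 were. In the deposited log2 values 5 members were at least 1.5-fold higher, and 7 relative to the median of all genes. No member was at least 1.5-fold lower with GANT61 under any of these settings. Over all genes, median scaling turned the split from 10.7% higher and 8.75% lower to 5.89% and 16.3%.

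Cyclopamine left the same genes close to their control. Of 36 members detected on both chip 1 arrays, 2 were at least 1.5-fold higher, 1 was lower and 33 lay between, which is 5.56% higher against a background of 7.31% of 8007 genes and 2.78% lower against 4.35%. None reached 2-fold in either direction, where all genes gave 1.62% higher and 0.512% lower. The shares are near those of all genes. The median log2 ratio was 0.15, where that of all genes was 0.00, and 24 of 36 (66.7%) were above 0 against 49.9%. This median turned to -0.12 with median scaling and -0.13 in the deposited log2 values, where the median of all genes was -0.25 and -0.20. The counts were then 2 higher and 4 lower with median scaling, and 0 and 4 in the deposited values. Relative to the median of all genes, the members' median was 0.12 and 0.06 in these settings, with 2 higher and 1 lower in both.

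**Figure D2:**
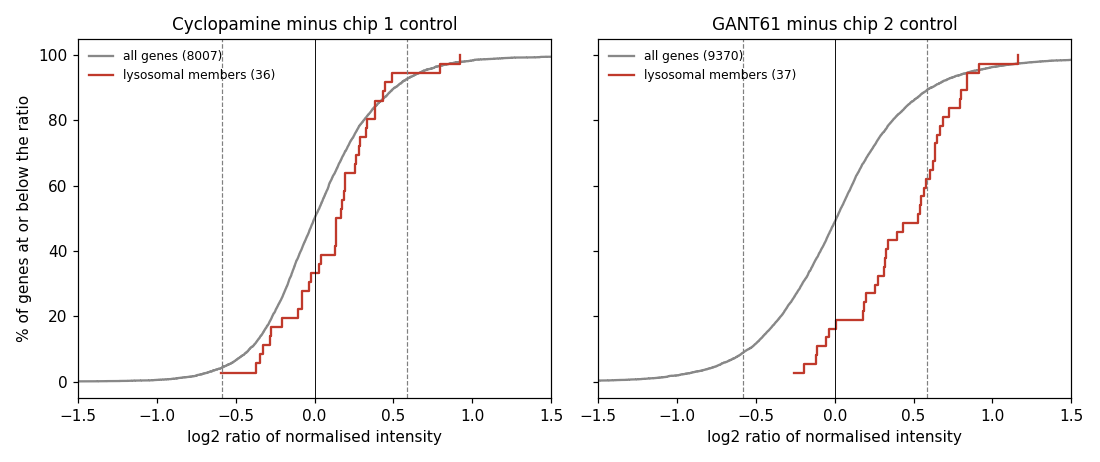
Percent of genes (y axis) at or below each log2 ratio (x axis, drawn to 1.5 either way) for all genes above background on both arrays and for the lysosomal members, cyclopamine left and GANT61 right; dashed lines mark 1.5-fold. With GANT61 the line of the 37 members lies to the right of that of all genes over most of its length, with medians of 0.53 and 0.01, and with cyclopamine the medians are 0.15 and 0.00.

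Among the proteases, CTSA, CTSZ and TPP1 were higher with GANT61 and CTSB with cyclopamine. CTSA (ILMN_1719286), the carboxypeptidase that also shields the sialidase NEU1 from breakdown, had log2 levels of 9.71 in the chip 2 control and 10.38 with GANT61, and 8.41 and 8.67 in the chip 1 control and with cyclopamine. That is 1.59-fold higher with GANT61 and a log2 ratio of 0.26 with cyclopamine. On the deposited scale the CTSA intensities were 949 and 1351 on chip 2 and 386 and 386 on chip 1, so the chip 1 arrays were equal before normalisation. CTSZ stood at 7.67 and 8.40 on chip 2, 1.65-fold higher with GANT61, and at 10.48 and 10.11 on chip 1. Its level with GANT61 was below both arrays of chip 1. TPP1, the tripeptidyl peptidase whose loss causes a childhood lipofuscinosis, had 9.48 and 10.11 on chip 2 and 9.30 and 9.79 on chip 1. Its ratios were 0.63 with GANT61 and 0.49 with cyclopamine, in the same direction and only the first past 1.5-fold.

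CTSD, the main aspartic protease of lysosomes, lay just inside 1.5-fold with GANT61, at 10.87 and 11.45, with a ratio of 0.58, and at 9.94 and 10.32 on chip 1. The cysteine protease gene CTSB (ILMN_2359742) had 8.88 in the chip 1 control and 9.68 with cyclopamine, 1.74-fold higher, and its other probe gave a log2 ratio of 0.42. This call held under 8 of 9 alternatives, from 0.53 to 0.88. With GANT61 the CTSB probes disagreed in sign, at 0.33 and -0.15, so no direction can be given. CTSC, which activates serine proteases of granules, had ratios of -0.33 with cyclopamine and -0.20 with GANT61, and its other probes above background ran from -0.35 to -0.02 with cyclopamine and from -0.03 to 0.26 with GANT61. Between the controls the CTSC probes spread from -1.05 to 1.64, too far apart to give a direction. LGMN, an asparaginyl endopeptidase, had 0.04 with cyclopamine and -0.12 with GANT61, and CTSH had -0.06 with GANT61. Proteases as a group had medians of 0.45 with GANT61 (8 measured, 3 higher) and 0.26 with cyclopamine (7 measured, 1 higher). The shares higher were 37.5% and 14.3%, against 10.7% and 7.31% of all genes.

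Among the glycosidases, NEU1, GLA and HEXA were higher with GANT61 and GAA with cyclopamine. GAA was not measured with GANT61, and HEXA was below background in the chip 1 control, so these calls show no split between the compounds for either gene. NEU1 (ILMN_1763144), the sialidase that works in a complex with CTSA and the galactosidase GLB1, had log2 levels of 9.65 in the chip 2 control and 10.56 with GANT61, 1.88-fold higher, against 9.60 and 9.77 on chip 1. Its controls were within 0.04 of each other, and the GANT61 array alone stood out. The NEU1 call held under all 9 alternative settings, with ratios from 0.70 to 0.91. GLB1 had ratios of 0.25 with GANT61, where its other measured probe gave -0.04, and 0.38 with cyclopamine. The 3 genes of the complex thus had ratios of 0.91, 0.67 and 0.25 with GANT61 at their brightest probe, and no direction can be given for GLB1.

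GLA (ILMN_1766637), the alpha-galactosidase lacking in Fabry disease, had 9.41 and 10.21 on chip 2, 1.74-fold higher with GANT61, and 10.34 and 10.13 on chip 1. With GANT61 it reached the levels that both arrays of chip 1 already had. HEXA, the alpha subunit of hexosaminidase, lay near the lower limit of the arrays, at 5.91 and 6.55 on chip 2, a ratio of 0.63, and was above background with cyclopamine (6.24) but not in the chip 1 control, at least 1.32-fold higher. HEXA kept its GANT61 call under 5 of 9 alternative settings. GAA (ILMN_2410783), the acid glucosidase of glycogen, was measured on chip 1 alone, at 6.21 in the control and 7.14 with cyclopamine, 1.90-fold higher. Its other probe was above background on no array, so a single probe carries this value, which ran from 0.42 to 0.92 over 9 alternatives. MAN2B1, an alpha-mannosidase, had 0.44 with cyclopamine and -0.04 with GANT61, and GUSB, the beta-glucuronidase, 0.14 and -0.26. The group medians were 0.44 with GANT61 and 0.28 with cyclopamine, each over 6 measured. The shares higher were 50% and 16.7%, against 10.7% and 7.31% of all genes.

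Among the roles of the members, lipid hydrolases and their activators had the highest share of calls with GANT61, over only 6 genes. Of 6 measured, 4 were at least 1.5-fold higher (66.7%, against 10.7% of all genes), all 6 were above 0, and the median was 0.62. PSAP (ILMN_2355559), the precursor of the saposins that present sphingolipids to hydrolases, had log2 levels of 12.28 and 13.12 on chip 2, 1.79-fold higher, and 12.03 and 12.36 on chip 1. Its other probe gave 0.73 with GANT61 and 0.44 with cyclopamine, close to the 0.84 and 0.33 of the first. LIPA, the acid lipase that frees cholesterol from its esters, had 9.34 and 10.14 on chip 2, 1.74-fold higher, and 9.50 and 9.76 on chip 1. The LIPA call held under all 9 alternatives, from 0.59 to 0.79, the PSAP and NPC2 calls under 7 each and the ASAH1 call under 6.

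ASAH1 had 5.66 in the chip 2 control and 6.29 with GANT61, 1.56-fold higher from a level near background, against 8.31 and 8.21 on chip 1. The chip 2 arrays thus lay far below those of chip 1 under either condition. NPC2, the soluble protein that hands cholesterol to NPC1, had 11.82 and 12.43 on chip 2, 1.52-fold higher, and 12.56 and 12.76 on chip 1. GM2A, the activator that presents GM2 ganglioside to hexosaminidase, had 5.97 and 6.54, just inside 1.5-fold with a ratio of 0.57, and -0.28 with cyclopamine. SMPD1, the acid sphingomyelinase, had 0.18 with GANT61 and 0.17 with cyclopamine, where its other probe gave -0.31. With cyclopamine none of the 6 was 1.5-fold apart and their ratios ran from -0.28 to 0.33.

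NPC1 (ILMN_1713505) had the largest ratio of any member with GANT61. Its log2 levels were 7.93 in the chip 2 control, 9.09 with GANT61, 10.07 in the chip 1 control and 10.52 with cyclopamine. GANT61 was 2.23-fold above its control, and cyclopamine had a ratio of 0.45. Deposited intensities were 346 and 615 on chip 2 and 1214 and 1397 on chip 1, so both compounds lay above their own control before normalisation as well. The NPC1 ratio with GANT61 ran from 0.83 to 1.16 over 9 alternatives, past 1.5-fold in each.

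Among the other membrane proteins, MCOLN1 was the 1 called with GANT61. MCOLN1, the calcium channel that signals from lysosomes, had 6.09 and 6.77 on chip 2, 1.61-fold higher with GANT61, and 7.68 and 7.96 on chip 1, a ratio of 0.29. This call held under 5 of 9 alternatives. The abundant structural glycoproteins LAMP1 and LAMP2 and the receptor SCARB2 stayed within 1.5-fold under both compounds. LAMP1 had 11.97 and 12.16 on chip 2 and 11.81 and 11.78 on chip 1. LAMP2 had ratios of 0.34 with GANT61, where its 6 probes ran from 0.27 to 0.49, and 0.19 with cyclopamine, where 5 probes ran from -0.24 to 0.19. SCARB2 had 0.20 and 0.03. GPNMB, measured on chip 1 alone, had 6.50 and 6.15, a ratio of -0.35.

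**Figure D3:**
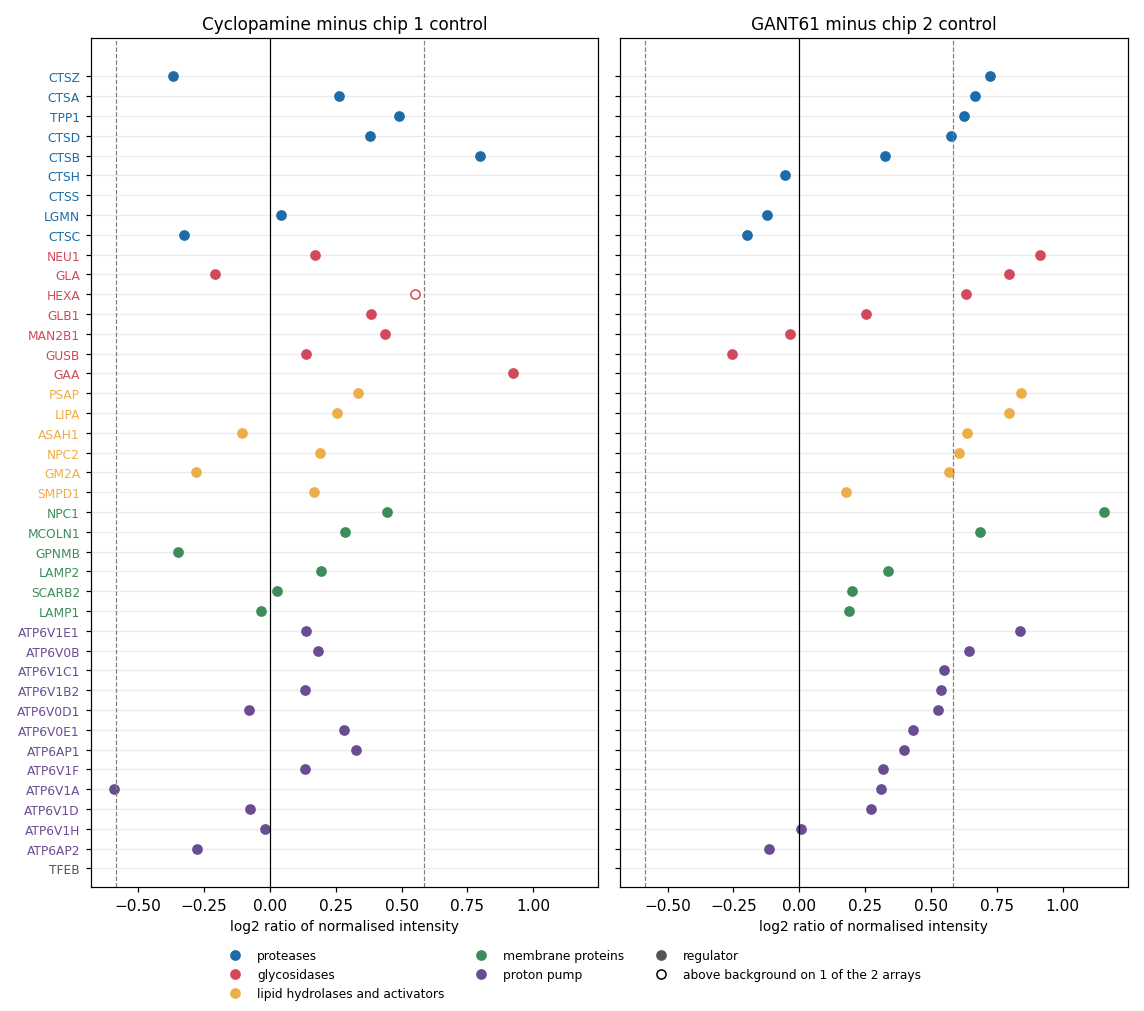
Log2 ratio of normalised intensity for each member (rows, coloured by role and ordered within it by the GANT61 value), cyclopamine left and GANT61 right; filled points were above background on both arrays, the open point (HEXA with cyclopamine) on 1, and members without a point were on neither. Dashed lines mark 1.5-fold: 14 members lie beyond the upper line with GANT61 and 2 with cyclopamine.

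In the proton pump 11 of 12 measured subunits were above 0 with GANT61 at their brightest probe (91.7%, against 51% of all genes), with a median of 0.41. The 11 include ATP6V1H at 0.01, whose other probe gave -0.03. Only ATP6V1E1 and ATP6V0B were at least 1.5-fold higher (16.7%, against 10.7% of all genes). ATP6V1E1 (ILMN_2339779), a peripheral stalk subunit of V1, had log2 levels of 10.26 and 11.10 on chip 2, 1.79-fold higher, and 11.51 and 11.65 on chip 1. Its probes gave 0.84 and 0.85 with GANT61 and 0.14 and 0.02 with cyclopamine. ATP6V0B, a proteolipid of the membrane ring, had 10.27 and 10.91 on chip 2 and 11.09 and 11.27 on chip 1. Its probes gave 0.65 and 0.83 with GANT61 and 0.18 and 0.27 with cyclopamine. Both genes again had lower levels in the chip 2 control than on either array of chip 1.

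Of the 7 V1 subunits, all were above 0 with GANT61 at their brightest probe, from 0.01 for ATP6V1H, a regulatory subunit, to ATP6V1E1. The other ATP6V1H probe gave -0.03, so no direction can be given for that gene. ATP6V1B2, a subunit of the catalytic head, had 0.54 and ATP6V1C1 0.55. The rotor subunit ATP6V1D had 0.27 and ATP6V1F 0.32. Among V0 subunits ATP6V0D1 had 0.53 and ATP6V0E1 0.43. The accessory proteins parted, ATP6AP1 with 0.40 and ATP6AP2, also known as the prorenin receptor, with -0.12. With cyclopamine the pump had a median of 0.13 and 6 of 11 subunits above 0 (54.5%, against 49.9% of all genes). This median ran from -0.18 to 0.14 over the alternatives. It was negative with median scaling and in the deposited values, where the median of all genes was negative too. ATP6V1A (ILMN_1711516), the catalytic subunit, was the 1 member at least 1.5-fold lower, with 11.15 in its control and 10.56 after treatment, while chip 2 had 11.29 and 11.60. Its deposited intensities were 2687 and 1434 on chip 1. The ratio of -0.59 lay at the 1.5-fold limit and passed it under 7 of 9 alternatives, with a range from -0.92 to -0.57.

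No member was called under both compounds. Of the 34 above background on all 4 arrays, 13 were higher with GANT61 and within 1.5-fold with cyclopamine, 1 (CTSB) was higher with cyclopamine only, 1 (ATP6V1A) was lower with cyclopamine only and 19 were within 1.5-fold with both. Over all 7306 genes on all 4 arrays, 1.67% were higher with both compounds and 0.698% lower with both, so a count of 0 among 34 is near the background. The compounds were on different chips with different controls, and no test of the difference between their ratios was possible with 1 array each. Of the 14 members higher with GANT61, 13 were measured with cyclopamine, and 10 of them had ratios above 0 there, up to 0.49 for TPP1. CTSZ, GLA and ASAH1 had ratios below 0 (-0.37, -0.21 and -0.10).

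**Figure D4:**
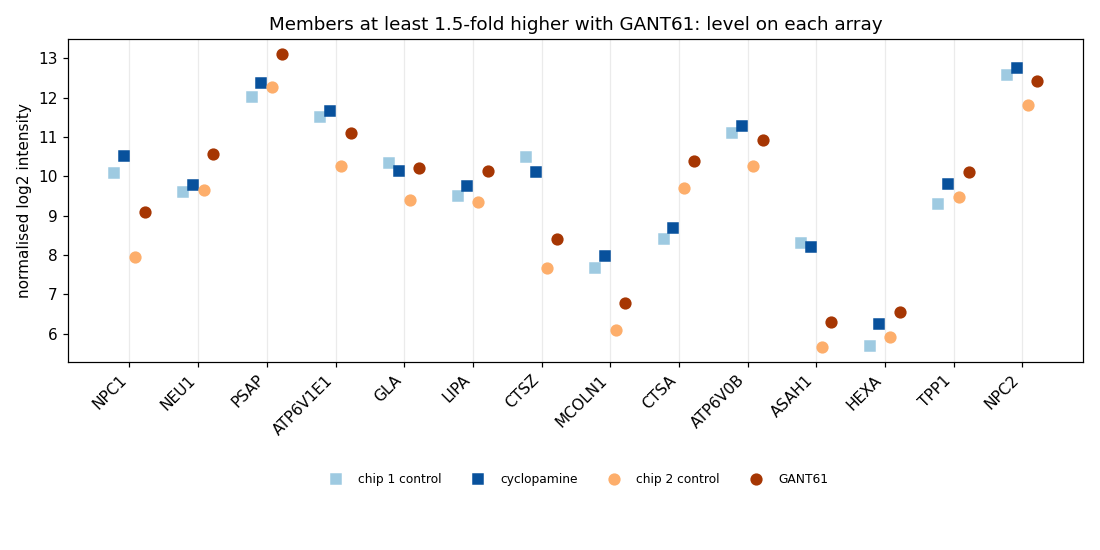
Normalised log2 intensity (y axis) of the 14 members at least 1.5-fold higher with GANT61, 1 point for each of the 4 arrays, ordered by the GANT61 ratio; levels of different genes are not comparable. GANT61 lies above the chip 2 control in every gene, while for NPC1, ATP6V1E1, CTSZ, MCOLN1, ATP6V0B, ASAH1 and NPC2 both arrays of chip 1 lie above both of chip 2.

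Beyond the 43, other lysosomal genes showed a less one-sided picture. Of 93 written down by function, 81 had a probe and 65 were detected on both chip 2 arrays. With GANT61, 13 (20%) were at least 1.5-fold higher and 8 (12.3%) lower, against 10.7% and 8.75% of all genes, with a median of 0.08. On chip 1, 6 of 60 (10%) were higher with cyclopamine and 3 (5%) lower, against 7.31% and 4.35% of all genes. Their median with cyclopamine was 0.04, and these shares are near those of all genes. LAMP3, an interferon-inducible LAMP relative, was 4.44-fold higher with GANT61 and 4.18-fold with cyclopamine. Its other probe gave smaller ratios of 0.67 and 0.76. CLCN7, the chloride-proton exchanger of lysosomes, was 2.48-fold higher with GANT61 and 1.99-fold with cyclopamine, and CTNS, the cystine exporter, had 0.84 and 1.03.

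Among the remaining genes at least 2-fold apart, CTSL, a cysteine protease, had ratios of 1.35 with GANT61 and 0.05 with cyclopamine, and 1.40 and 0.09 at another probe. RRAGC, a GTPase that recruits mTORC1 to lysosomes, had 1.32 and 0.33. TFE3, the TFEB relative, had log2 levels of 6.13 in the chip 2 control and 7.21 with GANT61, 2.10-fold higher, and 7.54 and 7.28 on chip 1. MITF was above background on chip 1 alone, at 6.65 and 6.01. CTSO, another cysteine protease, was 2.97-fold and NAAA, an amidase of lipid amides, 2.18-fold lower with GANT61. CD68, a macrosialin of the LAMP family, had 1.75 with cyclopamine at 1 probe and -0.15 and 0.05 at the others, so no direction can be given.

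**Figure D5:**
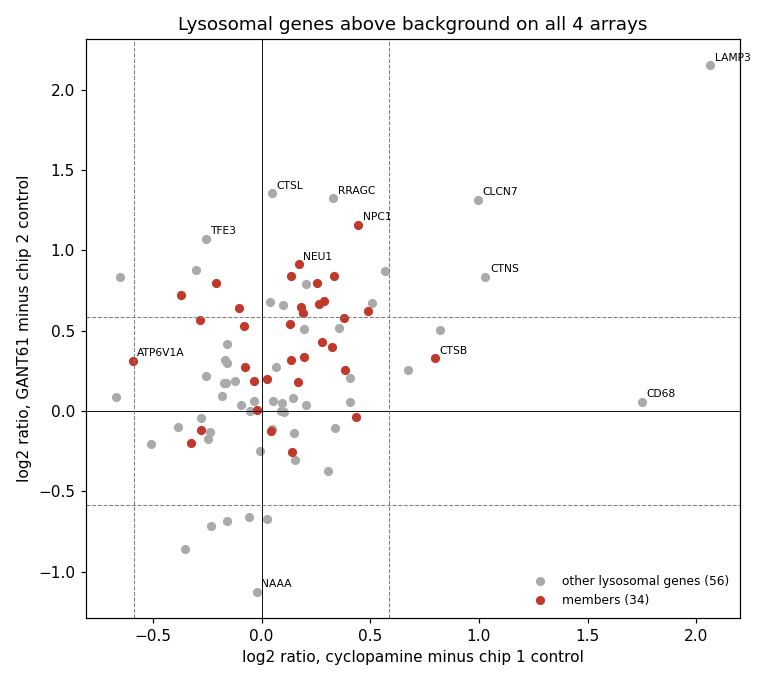
Log2 ratio with cyclopamine (x axis) and with GANT61 (y axis) for the 34 members and 56 other lysosomal genes above background on all 4 arrays; dashed lines mark 1.5-fold. Members lie mostly above 0 on the GANT61 axis with only CTSB and ATP6V1A past a line on the cyclopamine axis, and LAMP3 lies farthest to the upper right.

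TFEB and its relatives read an E-box inside the lysosomal promoter element. The letters CACGTG (the same on both strands) and the longer TCACGTG (either strand; every match of it holds the shorter one) were therefore searched in RefSeq windows of GRCh38.p14 from 250 bases before to 50 after each gene start. Of the 43 members 31 had a window, and 9 (29%) held CACGTG and 8 (25.8%) TCACGTG. The shares were 10.9% and 5.93% of 15034 genes with an array probe and a window, and 8.77% and 4.49% of all 27305 genes with a window. The 31 include CD63 and ATP6V0C, for which no probe was found, so the sets are not fully alike. A gene with several starts counted when any of its windows held the letters, which was so for CD63. Of 11 members with a window that were higher with GANT61, 4 held the letters, and of 15 measured within 1.5-fold, 3 did. No test related the letters to the ratios. A match describes letters and shows no binding.

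The windows are shown for the 4 members higher with GANT61 that held the letters, for GAA, higher with cyclopamine, and for LAMP1, which had the most copies (6 in its window) and a GANT61 ratio of 0.19. Each is the stretch of 200 bases that ends just before the gene start, 5′ to 3′ on the gene's strand, and capitals mark CACGTG.
CTSA, chr20:45891135-45891334, strand plus: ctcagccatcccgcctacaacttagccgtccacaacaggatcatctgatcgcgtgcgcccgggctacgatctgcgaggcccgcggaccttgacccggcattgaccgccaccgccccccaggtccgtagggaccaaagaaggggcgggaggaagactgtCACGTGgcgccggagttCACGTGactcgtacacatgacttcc
NEU1, chr6:31862822-31863021, strand minus: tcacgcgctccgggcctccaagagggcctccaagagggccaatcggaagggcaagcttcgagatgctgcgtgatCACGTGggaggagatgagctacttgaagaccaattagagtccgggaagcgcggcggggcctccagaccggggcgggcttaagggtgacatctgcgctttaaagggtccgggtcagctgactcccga
MCOLN1, chr19:7522424-7522623, strand plus: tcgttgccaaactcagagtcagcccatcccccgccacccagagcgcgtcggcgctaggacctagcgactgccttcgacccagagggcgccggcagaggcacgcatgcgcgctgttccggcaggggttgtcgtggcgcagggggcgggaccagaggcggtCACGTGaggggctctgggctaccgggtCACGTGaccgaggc
ATP6V0B, chr1:43974760-43974959, strand plus: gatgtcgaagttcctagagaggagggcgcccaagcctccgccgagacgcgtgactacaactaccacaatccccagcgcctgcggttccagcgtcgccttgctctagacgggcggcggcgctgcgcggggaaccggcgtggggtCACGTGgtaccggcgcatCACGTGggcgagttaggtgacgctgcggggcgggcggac
GAA, chr17:80101381-80101580, strand plus: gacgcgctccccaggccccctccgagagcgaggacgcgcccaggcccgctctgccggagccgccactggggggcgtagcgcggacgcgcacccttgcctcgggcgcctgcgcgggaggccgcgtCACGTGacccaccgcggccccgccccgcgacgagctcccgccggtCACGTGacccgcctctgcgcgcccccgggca
LAMP1, chr13:113297039-113297238, strand plus: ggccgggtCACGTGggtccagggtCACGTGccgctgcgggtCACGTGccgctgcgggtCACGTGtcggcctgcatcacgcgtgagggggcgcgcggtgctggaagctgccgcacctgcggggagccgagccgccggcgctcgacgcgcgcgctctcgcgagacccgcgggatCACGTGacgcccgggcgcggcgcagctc
In CTSA, MCOLN1 and ATP6V0B the printed stretch holds 2 copies, both within 60 bases of the start, in NEU1 1 copy that begins 126 bases before it, and in GAA 2, at 76 and 31 bases. LAMP1 has 5 in the printed stretch, 4 of them in a row between 192 and 142 bases before the start.

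Few markers of leukocytes and macrophages, cells rich in lysosomes, were detected. Of 10 leukocyte and macrophage markers none was above background on chip 1 and 2 were on each array of chip 2, where PTPRC, CD163, CSF1R and TYROBP were below background. CD14, well above the lowest detected level, had 8.0 in the chip 2 control and 8.20 with GANT61. MS4A1 passed in that control alone (5.43) and ITGAM with GANT61 alone (5.57), both near that level. The log2 of the summed level of the 10 was 9.09 and 9.23, against 8.47 and 8.37 on chip 1. The 5 endothelial markers were below background on every array, and of the 4 melanocyte markers with a probe only PMEL passed, in the chip 2 control alone. Of 11 colon epithelium markers measured with GANT61, 2 were at least 1.5-fold higher, 3 lower and 6 within, or 18.2% and 27.3% where all genes gave 10.7% and 8.75%. CDX2, an intestinal transcription factor, had -1.44, VIL1, a brush border protein, -1.08 and the mucin gene MUC13 -0.63, while the adhesion gene CEACAM6 had 1.19 and KRT20 0.85. With cyclopamine MUC13 had -1.26, and the other 2 of 3 measured markers were within 1.5-fold. The summed level of all 15 was 15.12 in the chip 2 control and 15.08 with GANT61 (log2). Fewer probes were above background with GANT61 (15958) than in its control (17068). The part of these differences in the lysosomal ratios was not tested.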

How the data were processed

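Total RNA of 4 cultures was hybridised to Illumina HumanHT-12 V4 arrays, per the labels' protocols. The deposited intensity tables give a summarised intensity on the linear scale and a detection p-value for each probe and array, per the file headers. How the submitters summarised the beads is not stated in the labels or headers. The deposited series table holds log2 intensity, equal to the log2 of those intensities within 5e-09. The 47227 probes on both chips were corrected and quantile normalised over all 4 arrays by limma's neqc function (limma 3.58.1, R 4.3.3, offset 16, which compresses ratios of dim probes). Symbols came from the platform annotation, updated through Entrez identifiers: 30112 probes had 1 symbol (30073 matched to a current identifier) and 8 had several and were left out. The probe with the highest mean level stood for a gene.

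Treated minus control ratios within a chip were taken for genes with a detection p under 0.01 on both arrays. Where only 1 array passed, the dim level was raised to the lowest detected level on its array (or kept if higher) and the fold written as "at least". The pipeline was tested on simulated data with known changes of at least 2-fold in bright probes. That test did not cover changes of 1.5-fold or dim probes. Members, lists, thresholds and the rule for named genes were chosen with earlier results of these data known. By that rule all members are accounted for, and levels on each array are given for members at least 1.5-fold apart with either compound, the largest ratio in each role and probes that disagree in sign past 1.5-fold. Other lysosomal genes are named at 2-fold, and 6 markers by name (EPCAM, CDH1, KRT8, KRT18, VIM, CDH2). Levels or values of other members, MITF and further markers were added after they were seen. Alternatives varied the background correction, scaling, offset, probe choice and detection filter.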

Additional observations from a re-analysis of the deposited data

How the results depend on the processing

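No paired analysis was possible because each group has 1 array, and no array could be left out in turn. Of 66 recomputed counts and medians, 56 stayed within 1.5 times the count or within the SD between probes. With cyclopamine, the median of the members (0.15) was -0.12 with median scaling and -0.13 in the deposited log2 values; the count higher (2) was 0 in the deposited values; and the count lower (1) was 4 with median scaling, 4 in the deposited values, 0 without background correction and 0 with an offset of 50. Relative to the median of all genes, median scaling and the deposited values gave medians of 0.12 and 0.06, with 2 higher and 1 lower in each. With GANT61, the count higher (14) was 4 with median scaling, 5 in the deposited values and 7 in these relative to the median of all genes, an alternative chosen after seeing the data. Its median ran from 0.31 to 0.53. These scalings move the median of all genes by -0.25 to -0.10; the cause of that shift was not tested. Among values of single members and roles, 463 moved by no more than the SD between probes and 50 moved by more. Low signal limits HEXA, GAA, GPNMB, ASAH1, SMPD1, GM2A, MAN2B1 and MCOLN1, whose intensities were near background on 1 chip or both, and leaves CTSS and TFEB unmeasured.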
